A study of Homo sapiens with 9 samples.

Results

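The telomerase and telomere maintenance genes described here are 10 of the 25084 genes in the deposited expression table, taken by symbol: TERT, TERC, DKC1, NOP10, NHP2, GAR1, ATRX, DAXX, TERF1 and TERF2. Each was found once. RNA sequencing libraries, 9 in all, were made from total RNA of LAN5, an established human neuroblastoma cell line with an amplified MYCN gene. A control siRNA (siCTR), the siRNA labelled siMYCN_2 and the siRNA labelled siHAND2_3 (written siMYCN and siHAND2) were each given to the cells of 3 libraries, by Nucleofector electroporation, and RNA was taken 72 h later. The labels name 1 siRNA for each target and 1 cell line, so an effect of an siRNA on other transcripts cannot be told apart from that of its target. They do not say whether the 3 libraries of a group came from separate cultures, and p-values then measure only the spread between these libraries, which may be technical.

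Telomerase adds repeats to chromosome ends with a reverse transcriptase (TERT) that copies a template in an RNA subunit (TERC). TERC ends in an H/ACA domain bound by dyskerin (DKC1), NOP10, NHP2 and GAR1, which are also the core of the H/ACA small nucleolar ribonucleoproteins that guide pseudouridylation of RNA. TERF1 and TERF2 are the shelterin proteins that bind double-stranded telomere repeats, and ATRX with DAXX deposits the histone variant H3.3 at such repeats. Neuroblastomas that keep their telomeres are known to do so by telomerase, often with MYCN amplification or TERT rearrangement. Others of them use alternative lengthening of telomeres (ALT), often with loss of ATRX. TERT and DKC1 are known targets of MYC proteins.

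Proteins of the MYC family bind the E-box CACGTG. The RefSeq promoter windows (GRCh38.p14, 250 bases before to 50 bases after a start site) were searched on both strands for these letters, for the variants CACGCG and CATGCG, and for CATCTG, an E-box of the kind bound by HAND2 and its partners. The table of promoters held 5 of the 10 genes in 6 windows, 2 of them for GAR1; ATRX, DAXX, TERC, TERF1 and TERF2 were not matched. The 250 bases before the start site are shown for TERT, DKC1 and NHP2, which fell after both siRNAs, and for NOP10, whose change passed the test after neither. Capitals mark the letters of a searched motif.
TERT (minus strand, chr5:1295069-1295318): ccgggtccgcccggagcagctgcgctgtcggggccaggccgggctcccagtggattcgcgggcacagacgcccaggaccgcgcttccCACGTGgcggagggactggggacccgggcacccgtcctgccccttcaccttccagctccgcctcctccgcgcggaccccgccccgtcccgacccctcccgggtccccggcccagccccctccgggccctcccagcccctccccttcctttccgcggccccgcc
DKC1 (plus strand, chrX:154762614-154762863): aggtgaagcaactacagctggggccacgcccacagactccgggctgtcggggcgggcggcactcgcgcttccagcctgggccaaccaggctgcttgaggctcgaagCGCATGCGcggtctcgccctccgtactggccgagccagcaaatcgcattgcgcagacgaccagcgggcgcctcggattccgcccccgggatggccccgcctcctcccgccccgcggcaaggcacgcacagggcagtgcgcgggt
NHP2 (minus strand, chr5:178153886-178154135): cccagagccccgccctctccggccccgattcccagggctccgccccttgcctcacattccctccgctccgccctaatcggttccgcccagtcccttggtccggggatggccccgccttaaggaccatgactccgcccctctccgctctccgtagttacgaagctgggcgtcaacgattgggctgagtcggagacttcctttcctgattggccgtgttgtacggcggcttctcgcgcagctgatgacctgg
NOP10 (minus strand, chr15:34343137-34343386): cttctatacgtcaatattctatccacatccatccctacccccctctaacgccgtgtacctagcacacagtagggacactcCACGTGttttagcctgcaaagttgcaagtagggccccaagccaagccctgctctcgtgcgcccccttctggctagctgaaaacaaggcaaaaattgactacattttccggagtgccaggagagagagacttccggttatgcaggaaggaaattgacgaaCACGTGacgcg

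The TERT window held CACGTG once, beginning 163 bases before the start site. The NOP10 window held it at 170 and at 11 bases before the start site. In GAR1 it lay at base 32 after the downstream start site and was not in the window of the upstream one. DKC1 held CATGCG on both strands, beginning 142 and 144 bases before the start site, where the 2 matches overlap. That start site is the RefSeq one (154762864). The deposited expression table begins DKC1 at 154762742, so by its annotation the last part of the stretch shown lies inside the gene. NHP2 held CACGCG on the other strand at base 24 after its start, outside the stretch shown. CATCTG was in none of the 6 windows. Among all 35116 promoter windows of this length, CACGTG was present in 7.26%, CACGCG in 11.4%, CATGCG in 7.05% and CATCTG in 14.7%. The TERT window was 77.3% G and C, at or above 94.7% of all windows (median 58.7%). Those of DKC1 (72.3%) and NHP2 (65%) were also above that median, and those of NOP10 (54.7%) and GAR1 (55.7% and 52.7%) below it. A match is a run of letters, and says nothing of whether a factor binds there.

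Values are CPM, reads per 1000000 reads assigned to genes in a library, and the depth read from the steps between low values was 21.1 M to 32.7 M reads. MYCN stood at 1848, 1894 and 1786 CPM under siCTR, 1338, 1245 and 1285 CPM under siMYCN and 898, 969 and 877 CPM under siHAND2. HAND2 averaged 501 ± 13.7, 571 ± 15.9 and 272 ± 7.65 CPM in the same order (SD, n = 3 libraries each), so each siRNA went with less of its target. All 13 neuroblastoma markers looked for, such as PHOX2A, GATA3, DBH and CHGA, were in the table with means of at least 1 CPM. The 5 Schwann cell and the 6 blood and endothelial markers in the table were all below a mean of 1 CPM. The 9 stromal markers in the table, PDGFRA the highest, summed to 290.4 to 294 CPM in siCTR, 352 to 354 in siMYCN and 634 to 720.3 in siHAND2, with COL1A1 alone below a mean of 1 CPM over the libraries. Against siCTR, 7 of the 8 tested stromal markers rose and THY1 fell in siHAND2, where DCN went from 0.431 ± 0.0794 to 11.02 ± 0.781 CPM and LUM from 9.15 ± 0.142 to 54.7 ± 4.40 CPM (SD over 3 libraries); in siMYCN 7 rose and 0 fell. The neuroblastoma markers summed to 2829 to 2980.0, 3485 to 3605 and 3061 to 3209 CPM; 10 of 13 rose in siMYCN, while in siHAND2 5 rose and 3 fell, DBH to 49.4% and TH to 48.6% of siCTR. With libraries rescaled by the median ratio or by quantiles, 9 rose and 1 fell in siMYCN. For siHAND2, 4 rose and 3 fell with the median ratio, and 5 rose and 3 fell with quantiles. The stromal counts were the same under both rescalings. Over all genes tested, 24.5% were called higher and 11.4% lower in siMYCN, and 18.1% and 11.8% in siHAND2. The part of either marker list in the results on the telomerase genes was not tested.

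In control cells TERC and the transcripts of all 4 H/ACA core proteins were far above that of TERT. Per kilobase of canonical transcript (GENCODE), siCTR levels were 135 ± 14.3 CPM per kb for TERC, 110.8 ± 6.76 for NOP10, 109 ± 2.20 for NHP2 and 57.2 ± 0.956 for DKC1 (SD, n = 3 libraries). DAXX followed at 41.7 ± 0.811, ATRX at 17.6 ± 0.812, TERF1 at 12.5 ± 0.446, GAR1 at 9.20 ± 0.401, TERF2 at 8.21 ± 0.489 and TERT at 0.874 ± 0.0758 CPM per kb. NOP10 and NHP2, neighbours in this order, did not differ beyond their spread. GAR1 was the least abundant of the H/ACA core transcripts per length. How RNA was selected for the libraries is not given in the sources used here.

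**Figure D1:**
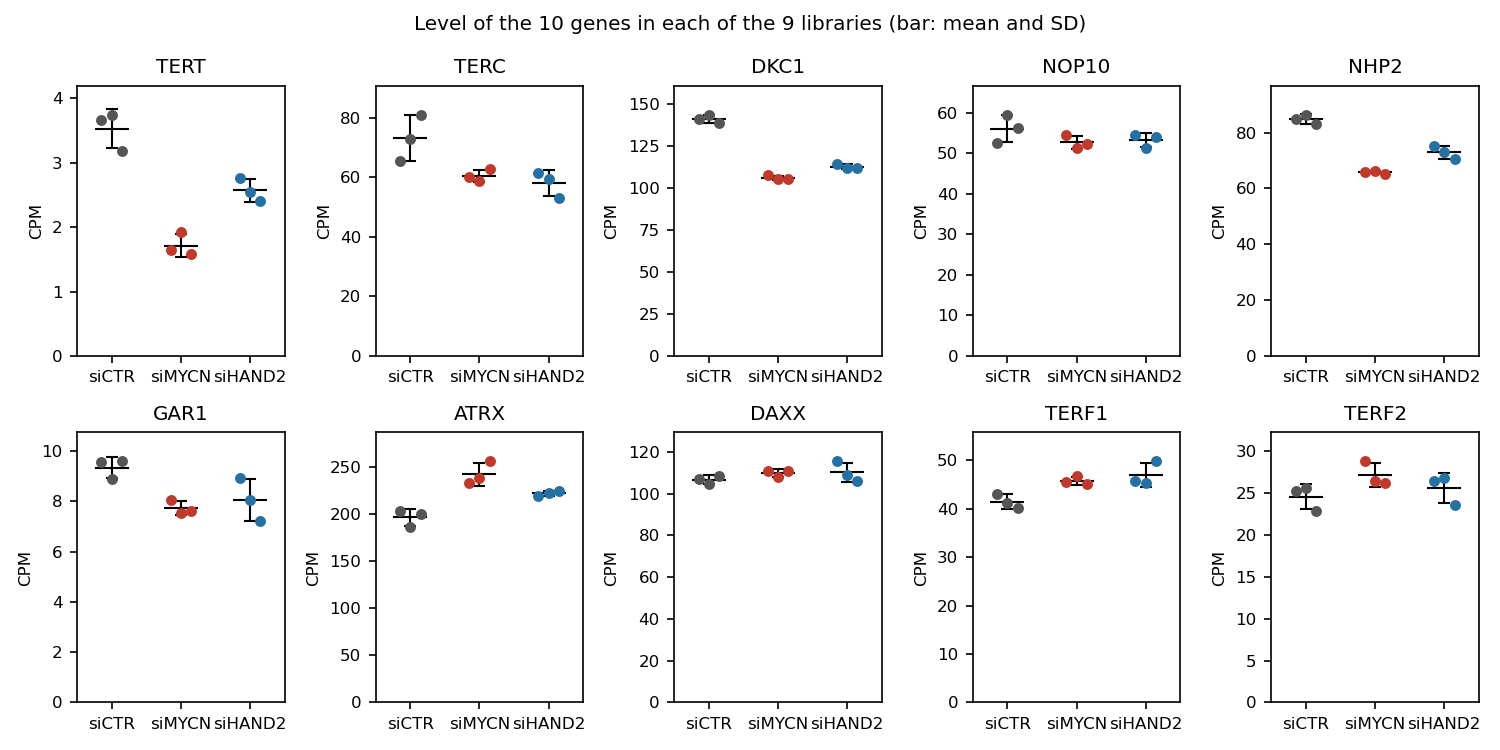
CPM of each of the 10 genes (vertical axis, from 0, with its own scale in each panel) in the 9 libraries, by siRNA. Points are libraries and bars the mean with its SD (n = 3). TERT, DKC1 and NHP2 are lowest in siMYCN and between siMYCN and siCTR in siHAND2, and ATRX is highest in siMYCN.

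Against siCTR, 5 of the 10 genes fell in siMYCN (TERT, TERC, DKC1, NHP2 and GAR1) and 2 rose (ATRX and TERF1), at an adjusted p under 0.05 in a linear model of all genes and libraries (limma, Benjamini-Hochberg over 14495 genes, as for every adjusted p given). Over all genes tested in siMYCN, 35.9% were called, 11.4% as lower and 24.5% as higher. In siHAND2, 4 fell (TERT, TERC, DKC1 and NHP2) and 2 rose (ATRX and TERF1), where 29.9% of all genes were called, 11.8% as lower and 18.1% as higher. The median log2 fold change of the 10 genes was -0.17 in siMYCN and -0.13 in siHAND2, beside 0.06 and 0.04 over all genes tested. Both comparisons share their siCTR libraries. Between the knockdowns, TERT and NHP2 were called higher in siHAND2 and 0 of the 10 lower, where 26.9% of all genes were called, 11.4% as higher and 15.5% as lower. At an unadjusted p under 0.05, ATRX alone was lower there in the same limma fit. In these bulk libraries, fewer cells expressing a gene and less of its RNA per cell cannot be told apart.

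The scaling of the libraries moved the balance of calls over all genes. With CPM as deposited, 68.3% of the calls in siMYCN and 60.6% of those in siHAND2 were higher. With libraries rescaled by their median ratio these shares were 51.2% and 47.1%, and after quantile normalization 49.3% and 47.8%. Small rises are given with their value under these scalings where the call changed and that value was computed.

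TERT (chromosome 5, 1253147 to 1295068, minus strand, GRCh38), the catalytic subunit, stood at 3.67, 3.74 and 3.18 CPM under siCTR, 1.65, 1.92 and 1.58 CPM under siMYCN and 2.76, 2.55 and 2.41 CPM under siHAND2. The 3 groups did not overlap: siMYCN was lowest, siCTR highest and siHAND2 in between. Their averages of 3.53 ± 0.306, 1.71 ± 0.179 and 2.57 ± 0.178 CPM (SD, n = 3 libraries) put TERT at 48.6% of its siCTR level in siMYCN and at 72.9% in siHAND2. These values rest on 67 to 120 reads per library in siCTR, 41 to 50 in siMYCN and 64 to 84 in siHAND2; at the fewest, the coefficient of variation from counting is 15.6%, which covers counting error only. On the log2(CPM + 1) scale TERT fell by 0.74 in siMYCN (standard error 0.11, adjusted p = 5.49e-05), at rank 34 from the lowest of 14495 genes. The added 1 CPM shrinks the change of a gene this low, which was -1.0 with 0.1 CPM added and -0.34 with 5 CPM added. In siHAND2 TERT fell by 0.34 (adjusted p = 0.0226, standard error 0.11, rank 642). That call was lost without siCTR replicate 1 (-0.32, adjusted p = 0.0781), siCTR replicate 2 (-0.31, 0.0914), siHAND2 replicate 2 (-0.34, 0.0603) or siHAND2 replicate 3 (-0.31, 0.0651), and with no filter on low genes (adjusted p = 0.0596). Between the knockdowns, TERT was 0.40 higher in siHAND2 (95% confidence interval 0.17 to 0.62, adjusted p = 0.0102), and this call held in all 17 alternatives in which TERT was tested. AC114291.2, on the other strand across the end of TERT, averaged 0.0702 CPM or less in each group.

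TERC (chromosome 3, 169764520 to 169765060, minus strand), the RNA subunit, stood at 65.5, 72.9 and 80.9 CPM under siCTR, 60.1, 58.8 and 62.8 CPM under siMYCN and 61.4, 59.4 and 53.0 CPM under siHAND2. All 6 knockdown libraries were below all 3 control libraries, and the controls were the most widely spread group. TERC fell by 0.26 in siMYCN (standard error 0.07, adjusted p = 0.00713) and by 0.33 in siHAND2 (adjusted p = 0.00186). The difference between the knockdowns was -0.07 (95% confidence interval -0.21 to 0.08, adjusted p = 0.526). The gene AC078802.2 (169764610 to 169765047) is annotated inside TERC on the same strand, and how reads were divided between both is not given in the sources used here. AC078802.2 stood at 50.6, 49.7 and 37.7 CPM under siCTR, 55.6, 50.6 and 45.0 CPM under siMYCN and 34.5, 49.5 and 40.7 CPM under siHAND2. It was lowest among the controls in siCTR replicate 3, where TERC was highest. Summed, both genes averaged 119 ± 3.29 CPM for siCTR, 111.0 ± 4.19 for siMYCN and 99.5 ± 8.25 for siHAND2 (SD over 3 libraries). With the sum in place of TERC, the change was -0.10 in siMYCN (adjusted p = 0.158), no longer past the threshold, and -0.26 in siHAND2 (adjusted p = 0.00171). The sum was also lower in siHAND2 than in siMYCN (-0.16, adjusted p = 0.0396). The call of TERC in siMYCN therefore depends on how reads of this pair are assigned.

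Of the H/ACA core, DKC1 and NHP2 fell after both siRNAs and GAR1 after siMYCN, while the change of NOP10 passed the test after neither. DKC1 (chromosome X, 154762742 to 154777689, plus strand), the pseudouridine synthase of the complex, stood at 141, 144 and 139 CPM under siCTR, 108, 105 and 105 CPM under siMYCN and 115, 112 and 112 CPM under siHAND2. All knockdown libraries were below all controls, by far more than the spread within a group. DKC1 fell by 0.41 in siMYCN (standard error 0.04, adjusted p = 9.37e-07), to 75.1% of siCTR. It fell by 0.32 in siHAND2 (adjusted p = 9.83e-06), to 79.9%. The 3 siHAND2 libraries were above the 3 siMYCN libraries, but the difference of 0.09 missed the threshold (95% confidence interval 0.01 to 0.17, adjusted p = 0.106); after quantile normalization it passed (0.12, adjusted p = 0.0298).

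NHP2 (chromosome 5, 178149463 to 178153894, minus strand), the core protein that contacts the guide RNA near its upper stem, stood at 85.0, 86.3 and 82.9 CPM under siCTR, 66.0, 66.2 and 65.3 CPM under siMYCN and 75.2, 72.9 and 70.7 CPM under siHAND2. As for TERT, the 3 groups did not overlap and siHAND2 was in between. NHP2 fell by 0.36 in siMYCN (standard error 0.04, adjusted p = 9.30e-06), to 77.7% of siCTR. It fell by 0.21 in siHAND2 (adjusted p = 0.00130), to 86.1%. It was 0.14 higher in siHAND2 than in siMYCN (adjusted p = 0.0192). This last call was lost without siMYCN replicate 1 (0.15, adjusted p = 0.0527), siMYCN replicate 3 (0.14, 0.0598) or siHAND2 replicate 1 (0.12, 0.0687), and with the 2 groups fitted alone (adjusted p = 0.0501). RMND5B, on the other strand, overlaps the end of NHP2 and moved the other way in siMYCN, from 32.4 ± 0.139 to 38.2 ± 1.69 CPM (0.23, adjusted p = 0.00224).

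GAR1 (chromosome 4, 109815510 to 109824740, plus strand), which takes the place of NAF1 as the particle matures, stood at 9.57, 8.87 and 9.59 CPM under siCTR, 8.05, 7.52 and 7.61 CPM under siMYCN and 8.91, 8.05 and 7.23 CPM under siHAND2. All siMYCN libraries were below siCTR, while siHAND2 replicate 1 reached into the siCTR range. GAR1 fell by 0.24 in siMYCN (standard error 0.08, adjusted p = 0.0311). The call was lost without siCTR replicate 1 (-0.23, adjusted p = 0.0921), siCTR replicate 3 (-0.23, 0.0850), siMYCN replicate 2 (-0.23, 0.0853) or siMYCN replicate 3 (-0.24, 0.0834), and with no filter (adjusted p = 0.0804). In siHAND2 the value was -0.19 (95% confidence interval -0.37 to -0.02, adjusted p = 0.0925). It passed the threshold without siHAND2 replicate 1 (-0.26, adjusted p = 0.0388) and after quantile normalization (-0.24, 0.0408).

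NOP10 (chromosome 15, 34341719 to 34343136, minus strand), the smallest core protein, stood at 52.7, 59.5 and 56.3 CPM under siCTR, 54.6, 51.4 and 52.4 CPM under siMYCN and 54.5, 51.3 and 54.0 CPM under siHAND2. The groups overlapped. Its difference from siCTR was -0.09 in siMYCN (95% confidence interval -0.20 to 0.03, adjusted p = 0.219) and -0.07 in siHAND2 (95% confidence interval -0.18 to 0.04, adjusted p = 0.321). After median-ratio rescaling the siMYCN value was -0.14 and passed the threshold (adjusted p = 0.0456). The NOP10 promoter window shown above is the one with 2 CACGTG runs. The windows of DKC1 and NHP2 hold none, but each holds a searched variant of that E-box. The TERT window and the downstream GAR1 window hold the E-box itself, and both genes fell in siMYCN. The part of any of these letters in the changes was not tested.

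**Figure D2:**
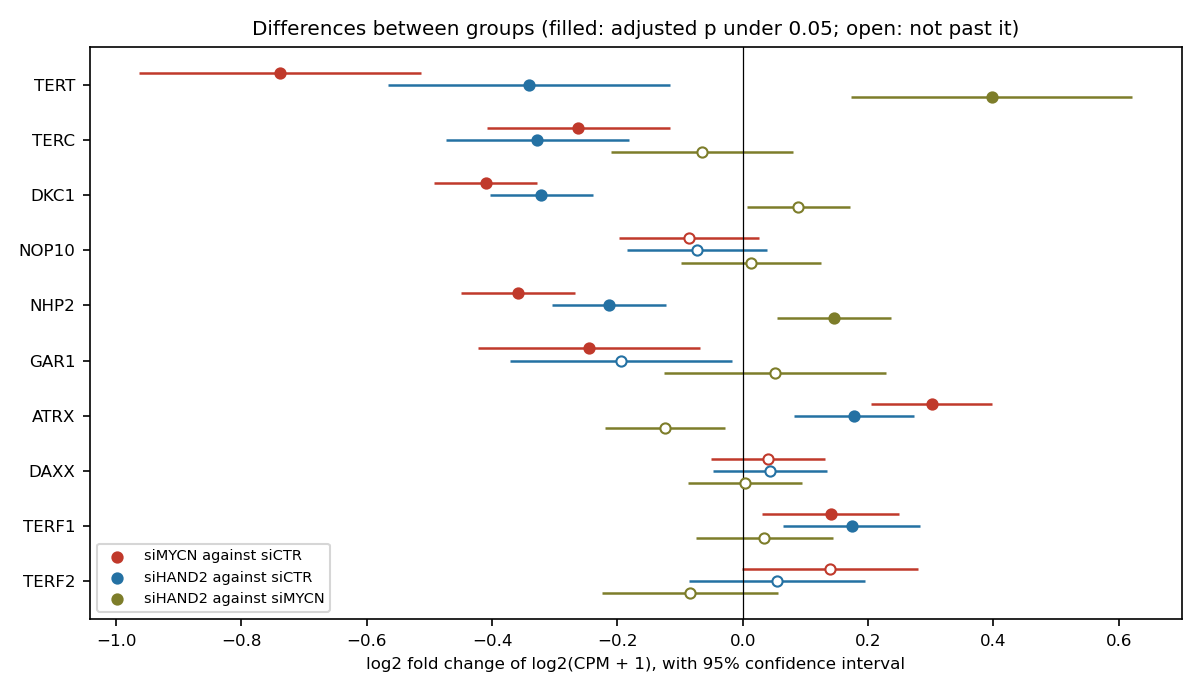
Log2 fold change on the log2(CPM + 1) scale (horizontal axis) of each gene with its 95% confidence interval, for siMYCN and siHAND2 against siCTR and for siHAND2 against siMYCN. Filled points have an adjusted p under 0.05 (limma). TERT lies farthest from 0 in siMYCN (-0.74), and TERT and NHP2 are filled in the comparison of the knockdowns.

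ATRX rose after both siRNAs, and the difference of its partner DAXX passed the test after neither. ATRX (chromosome X, 77504878 to 77786233, minus strand), a chromatin remodeller, stood at 203, 186 and 199 CPM under siCTR, 233, 237 and 256 CPM under siMYCN and 219, 222 and 224 CPM under siHAND2. No control library reached the level of any knockdown library, and all siMYCN libraries were above all siHAND2 libraries. ATRX rose by 0.30 in siMYCN (standard error 0.05, adjusted p = 8.99e-05), to 123% of siCTR. It rose by 0.18 in siHAND2 (adjusted p = 0.00742), to 113%, a call lost without siCTR replicate 2 (0.14, adjusted p = 0.0576). The difference of siHAND2 from siMYCN was -0.12 (adjusted p = 0.0540). It passed the threshold without siMYCN replicate 1 (-0.15, adjusted p = 0.0484).

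DAXX (chromosome 6, 33318558 to 33323016, minus strand), the H3.3 chaperone, stood at 107, 105 and 109 CPM under siCTR, 110.8, 108 and 111.0 CPM under siMYCN and 115, 109 and 106.3 CPM under siHAND2. All groups overlapped. The difference from siCTR was 0.04 in siMYCN (95% confidence interval -0.05 to 0.13, adjusted p = 0.497) and 0.04 in siHAND2 (95% confidence interval -0.05 to 0.14, adjusted p = 0.477). The siMYCN value took the other sign under both other scalings (-0.017 with the median ratio and -0.019 with quantiles). SMIM40, which overlaps DAXX on the same strand, averaged under 1 CPM in each group.

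TERF1 rose by a small amount after both siRNAs, and TERF2 passed the test after neither. TERF1 (chromosome 8, 73008864 to 73048123, plus strand), a shelterin protein that limits telomere lengthening, stood at 43.0, 41.2 and 40.1 CPM under siCTR, 45.5, 46.7 and 45.2 CPM under siMYCN and 45.7, 45.3 and 49.7 CPM under siHAND2. All 6 knockdown libraries were above the 3 controls. TERF1 rose by 0.14 in siMYCN (standard error 0.05, adjusted p = 0.0437) and by 0.17 in siHAND2 (adjusted p = 0.0176). The siMYCN call was lost without siCTR replicate 2 (0.14, adjusted p = 0.112), siCTR replicate 3 (0.12, 0.150), or siMYCN replicate 1 (0.14, 0.0819), 2 (0.13, 0.120) or 3 (0.15, 0.0759). It was also lost with no filter (adjusted p = 0.0605), with no intensity trend (0.0682), with median-ratio rescaling (0.08, 0.219) and with quantile normalization (0.08, 0.248). The siHAND2 call was lost with median-ratio rescaling (0.13, adjusted p = 0.0541), and without siCTR replicate 2 (0.17, 0.0602), siCTR replicate 3 (0.15, 0.0727) or siHAND2 replicate 3 (0.13, 0.0526).

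TERF2 (chromosome 16, 69355567 to 69408571, minus strand), the shelterin protein that guards chromosome ends against fusion, stood at 25.3, 25.6 and 22.9 CPM under siCTR, 28.8, 26.5 and 26.2 CPM under siMYCN and 26.4, 26.8 and 23.6 CPM under siHAND2. The siMYCN libraries were above siCTR and the siHAND2 libraries overlapped with it. The difference from siCTR was 0.14 in siMYCN (95% confidence interval -0.0015 to 0.28, adjusted p = 0.116) and 0.05 in siHAND2 (95% confidence interval -0.09 to 0.19, adjusted p = 0.579).

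Counted by libraries that do not overlap between groups, 5 of the 10 genes were lower and 3 higher in siMYCN than in siCTR, where 49.5% of all genes did not overlap, 16.1% lower and 33.4% higher. In siHAND2 against siCTR, 4 were lower and 2 higher, where 42.4% of all genes did not overlap, 16.6% lower and 25.8% higher. In siHAND2 against siMYCN, ATRX was lower and TERT, DKC1 and NHP2 were higher, where 38.7% of all genes did not overlap, 21.6% lower and 17.1% higher. The share of the 10 genes that were lower against siCTR lay above these backgrounds, and the share that were higher did not. The 10 genes were chosen with earlier results of these data known, and both comparisons share the siCTR libraries. An excess over the background was therefore not tested.

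A ratio of 2 genes within a library is not changed by 1 scaling factor per library, such as the median ratio. Quantile normalization can change it. DKC1 to NOP10 (a ratio of CPM, not corrected for length) was 2.68, 2.41 and 2.47 in the siCTR libraries, 1.97, 2.04 and 2.01 in siMYCN and 2.10, 2.19 and 2.07 in siHAND2. Every knockdown library was below every control, so the proportion of these 2 transcripts differed between these libraries. NOP10 is the core gene called after neither siRNA, so ratios to it partly restate the calls above. How many other pairs of genes separate in this way was not counted. NHP2 to NOP10 went the same way, at 1.45 to 1.61 in siCTR, 1.21 to 1.29 in siMYCN and 1.31 to 1.42 in siHAND2. GAR1 to NOP10 was 0.149 to 0.182 in siCTR and 0.145 to 0.148 in siMYCN, just below it. In siHAND2 this ratio was 0.134 to 0.163 and overlapped with siCTR. DKC1 to NHP2 was 1.66 to 1.67 in siCTR, 1.59 to 1.63 in siMYCN and 1.52 to 1.58 in siHAND2, with no overlap between the 3 groups. TERT to DKC1 was 0.0229 to 0.0261 in siCTR, 0.0150 to 0.0182 in siMYCN and 0.0216 to 0.0241 in siHAND2, lowest in siMYCN, while siHAND2 overlapped with siCTR. TERT to TERC was 0.0393 to 0.0560, 0.0251 to 0.0326 and 0.0429 to 0.0454 in the same order, again lowest in siMYCN. ATRX to DAXX was 1.78 to 1.90 in siCTR and 2.10 to 2.30 in siMYCN, without overlap, and 1.90 to 2.11 in siHAND2. TERF1 to TERF2 overlapped between all groups.

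**Figure D3:**
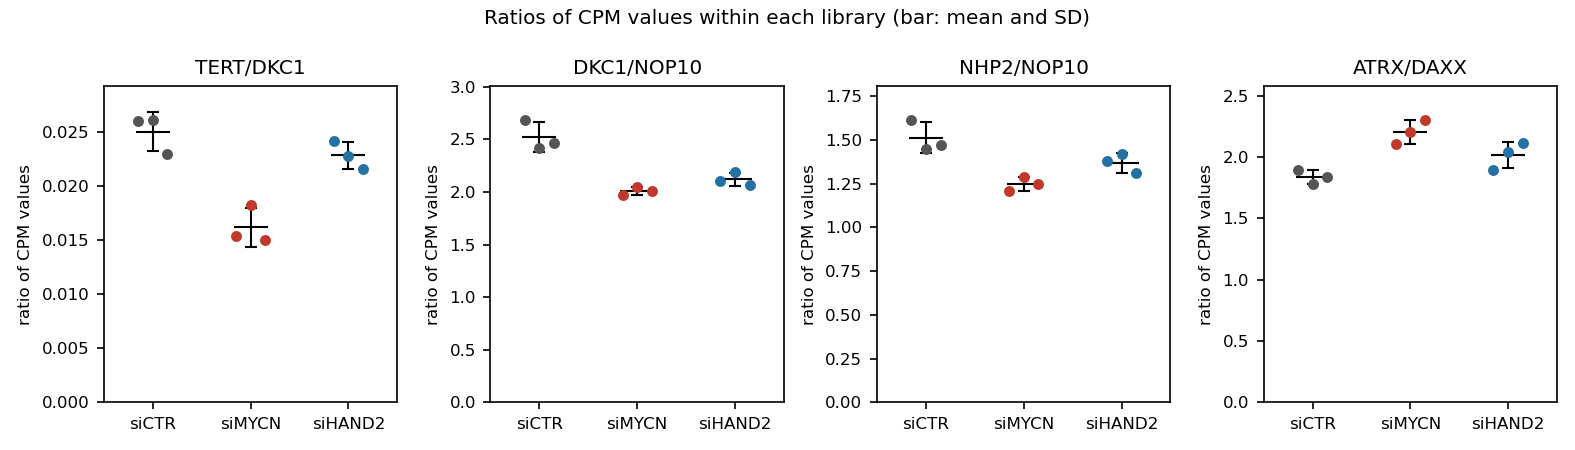
Ratio of the CPM of 2 genes within each library (vertical axis, no unit), by siRNA. Points are libraries and bars the mean with its SD (n = 3). TERT/DKC1 is lower in the 3 siMYCN libraries than in the other 6, and DKC1/NOP10 is lower in both knockdowns than in siCTR.

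The order of the knockdowns differed between MYCN transcript and TERT and NHP2, while the difference of TERC between the knockdowns missed the threshold. MYCN was at 49.6% of siCTR in siHAND2 and at 70.0% in siMYCN, and thus lower in siHAND2 (-0.50, adjusted p = 6.21e-07). TERT and NHP2 were lower in siMYCN, with differences of the other sign (0.40 and 0.14). DKC1 had the same order of averages, 106.1 ± 1.42 CPM in siMYCN below 113 ± 1.54 CPM in siHAND2 (SD over 3 libraries), short of the threshold as given above. The averages of TERC had the order of MYCN, 60.6 ± 2.02 CPM in siMYCN and 57.9 ± 4.37 CPM in siHAND2, but the libraries overlapped. This difference missed the threshold for TERC alone. It passed for the sum with AC078802.2 (-0.16), which was chosen after seeing the data. HAND2 transcript also differed between these groups (-1.07, adjusted p = 9.48e-12), and MYCN protein was not measured.

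**Figure D4:**
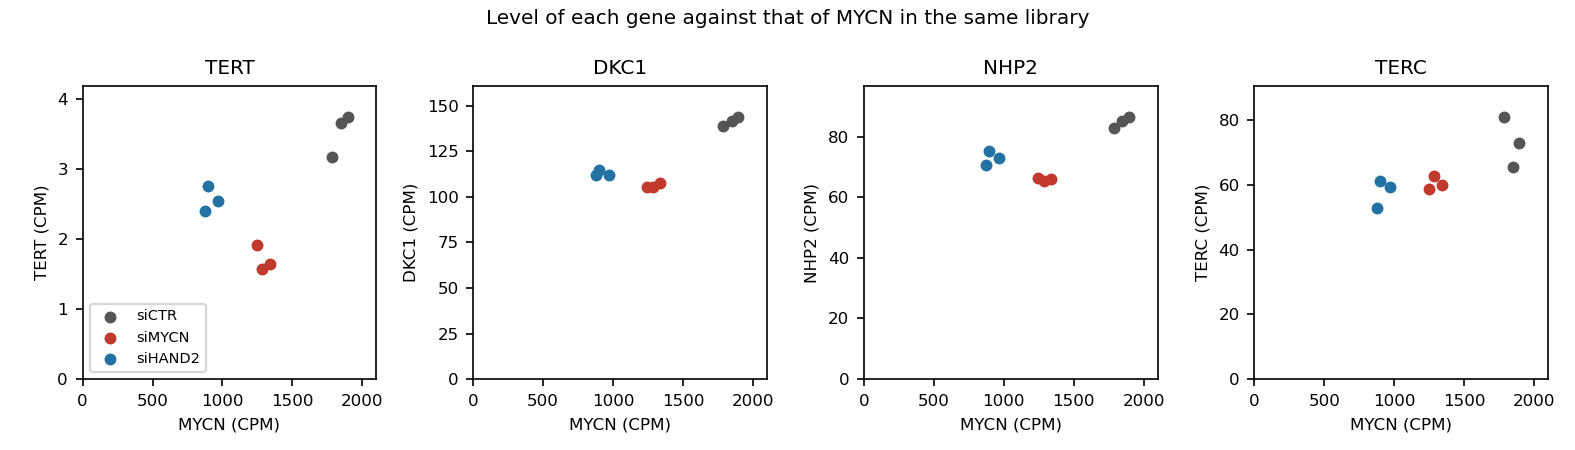
CPM of TERT, DKC1, NHP2 and TERC (vertical axes) against the CPM of MYCN (horizontal axes) in the same library, 1 point per library. The siHAND2 libraries have the least MYCN (877 to 969 CPM) and more TERT and NHP2 than the siMYCN libraries (MYCN 1245 to 1338 CPM), while TERC overlaps between both.

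Further genes of the pathway were taken from lists. Beside their counts, 24.5% of all genes tested were called higher and 11.4% lower in siMYCN, and 18.1% and 11.8% in siHAND2. Rescaled, 4776 of all 14495 genes were called with the median ratio and 4728 with quantiles in siMYCN. In siHAND2 these numbers were 4251 and 4147, and the shares of calls that were higher are given above. Of 15 genes for telomerase assembly and TERC processing, 0 rose and 3 fell in siMYCN and 1 rose and 4 fell in siHAND2, with median log2 fold changes of -0.04 and -0.06. Rescaled, 0 rose and 5 fell with the median ratio and 1 rose and 5 fell with quantiles in siMYCN, and 1 rose and 5 fell with the median ratio and 2 rose and 5 fell with quantiles in siHAND2. RUVBL1, an ATPase of telomerase assembly, fell from 148 ± 2.34 CPM to 125 ± 3.38 in siMYCN (-0.23, adjusted p = 0.000237; all such errors are the SD over 3 libraries) and 124 ± 0.569 in siHAND2 (-0.24, adjusted p = 0.000181). SHQ1, the chaperone of dyskerin, fell in siMYCN from 30.2 ± 1.55 to 24.4 ± 0.870 CPM (-0.30, adjusted p = 0.00203). SHQ1 was also called lower in siHAND2 (-0.20, adjusted p = 0.0282). PARN, the ribonuclease that trims the end of TERC, fell in siHAND2 from 34.6 ± 1.83 to 28.9 ± 1.85 CPM (-0.25, adjusted p = 0.00398).

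The core proteins of the box C/D ribonucleoproteins, which guide ribose methylation rather than pseudouridylation, all fell in siMYCN (4 of 4) and 2 of 4 fell in siHAND2, the same counts as under both other scalings. The list medians were -0.20 and -0.11. Fibrillarin (FBL), the methyltransferase, fell from 133 ± 5.08 CPM to 93.4 ± 3.84 in siMYCN (-0.50, adjusted p = 3.33e-06) and 107 ± 7.96 in siHAND2 (-0.31, adjusted p = 0.000455). SNU13, which binds the box C/D fold, fell by 0.22 in siMYCN (adjusted p = 0.000941) and by 0.18 in siHAND2 (adjusted p = 0.00467). The falls of DKC1 (-0.41) and NHP2 (-0.36) in siMYCN lay between those of FBL and SNU13. NOP56 (-0.18) and NOP58 (-0.16) fell less than SNU13. Of the other H/ACA core genes, GAR1 was at -0.24 there and NOP10, not called, at -0.09.

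Of the other 4 shelterin genes, 2 rose in siMYCN and 0 were called in siHAND2 by limma, where ACD alone had an unadjusted p under 0.05. Rescaled, 1 rose and 0 fell with either in siMYCN, and 0 rose and 1 fell with either in siHAND2. TERF2IP, the partner of TERF2, rose in siMYCN from 144 ± 2.76 to 167 ± 6.56 CPM (0.21, adjusted p = 0.00114), and was at 0.07 in siHAND2 (adjusted p = 0.232). TINF2, which bridges TERF1 and TERF2, rose in siMYCN from 41.5 ± 1.02 to 46.6 ± 0.672 CPM (0.16, adjusted p = 0.0134). That call was lost without siCTR replicate 1 (0.14, adjusted p = 0.0659) and under both other scalings (0.11 in each). ACD, the subunit that recruits telomerase, was at -0.20 in siHAND2 (adjusted p = 0.0521). It passed the threshold without siHAND2 replicate 1 (-0.27, adjusted p = 0.0149), with a filter of 5 CPM (0.0439) and under both other scalings (0.0283 and 0.0286).

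Of the 3 genes of CST, the complex that ends telomerase action and aids fill-in of the C-rich strand, 0 were called after either siRNA by limma. At an unadjusted p under 0.05 there were 1 in siMYCN (STN1) and 1 in siHAND2 (STN1). Rescaled, 0 rose and 0 fell with either in siMYCN, and 0 rose and 1 fell with either in siHAND2. STN1 was at 0.14 in siMYCN (adjusted p = 0.104) and -0.16 in siHAND2 (adjusted p = 0.0632). In siHAND2 it passed without siCTR replicate 3 (-0.21, adjusted p = 0.0371) and under both other scalings (-0.20 in each). CTC1 was at 0.10 in siMYCN (adjusted p = 0.202) and 0.04 in siHAND2 (adjusted p = 0.667).

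Of 16 genes of telomere replication and end protection, 2 rose and 3 fell in siMYCN and 4 rose and 0 fell in siHAND2. Rescaled, 2 rose and 5 fell with the median ratio and 2 rose and 6 fell with quantiles in siMYCN, and 1 rose and 0 fell with either in siHAND2. TEP1, a protein shared by telomerase and vaults, rose in siMYCN from 4.10 ± 0.112 to 6.17 ± 0.323 CPM (0.49, adjusted p = 0.000375). SLX4, a nuclease scaffold, rose there by 0.26 (adjusted p = 0.00174). Both were also called higher in siHAND2, TEP1 by 0.25 (adjusted p = 0.0370) and SLX4 by 0.16 (adjusted p = 0.0396). The 1 rise in siHAND2 under either rescaling was that of HMBOX1. HMBOX1, which binds telomere repeats, rose in siHAND2 from 57.2 ± 1.10 to 80.8 ± 7.52 CPM (0.49, adjusted p = 2.36e-05). The tankyrase TNKS2 rose there by 0.13 (adjusted p = 0.0324). This was lost without siCTR replicate 1 (0.15), 2 (0.14) or 3 (0.10), without siHAND2 replicate 1 (0.13) or 3 (0.11), with the 2 groups alone, with no intensity trend and under both other scalings (0.09 and 0.10).

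Of 10 genes for H3.3, its chaperones and partners, 3 rose and 1 fell in siMYCN and 4 rose and 0 fell in siHAND2. Rescaled, 1 rose and 1 fell with the median ratio and 3 rose and 1 fell with quantiles in siMYCN, and 2 rose and 0 fell with either in siHAND2. H3-3B, a gene for H3.3 itself, rose from 723 ± 17.3 CPM to 891 ± 11.8 in siMYCN (0.30, adjusted p = 1.76e-05) and 908 ± 13.4 in siHAND2 (0.33, adjusted p = 7.21e-06). H3-3A, which encodes the same protein, rose by 0.20 in siHAND2 (adjusted p = 0.000984). MORC3, a chromatin ATPase, rose by 0.19 in siMYCN (adjusted p = 0.0100), a call lost without siCTR replicate 2 (0.16) and with median-ratio rescaling (0.13). MORC3 was also called higher in siHAND2 (0.15, adjusted p = 0.0366). The 2 rises in siHAND2 under either rescaling were those of H3-3B and H3-3A.

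Of 14 ALT-associated genes, 3 rose and 0 fell in siMYCN and 3 rose and 0 fell in siHAND2. Over all genes tested, 24.5% were called higher in siMYCN and 18.1% in siHAND2. Rescaled, 1 rose and 1 fell with the median ratio and 0 rose and 1 fell with quantiles in siMYCN, and 1 rose and 0 fell with either in siHAND2. ZNF827, a zinc finger protein of ALT telomeres, rose from 13.4 ± 1.39 CPM to 16.2 ± 0.682 in siMYCN (0.26, adjusted p = 0.0133) and 21.0 ± 1.31 in siHAND2 (0.62, adjusted p = 1.28e-05). Its siMYCN call was lost without siCTR replicate 1 (0.20) or siMYCN replicate 3 (0.23) and with quantile normalization (0.19). SMARCAL1, an annealing helicase, rose by 0.21 in siMYCN (adjusted p = 0.0212). It was lost without siCTR replicate 2 (0.19) or 3 (0.20), siMYCN replicate 1 (0.20) or 3 (0.19), and under both other scalings (0.15 and 0.13). RAD52, a recombination protein, rose by 0.25 in siHAND2 (adjusted p = 0.0364). It was lost without siCTR replicate 2 (0.24) or 3 (0.21), siHAND2 replicate 2 (0.24) or 3 (0.24), with no filter, with no intensity trend and under both other scalings (0.21 and 0.20).

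Of 10 factors known to act on the TERT promoter, 5 rose and 1 fell in siMYCN and 2 rose and 1 fell in siHAND2. Rescaled, 1 rose and 1 fell with either in siMYCN, and 1 rose and 1 fell with the median ratio and 2 rose and 1 fell with quantiles in siHAND2. ETS1 rose in siMYCN from 77.9 ± 4.21 to 98.7 ± 4.06 CPM (0.34, adjusted p = 6.60e-05). ETS2, of the same family, fell from 75.7 ± 2.44 CPM to 62.2 ± 2.501 in siMYCN (-0.28, adjusted p = 0.000219) and 54.5 ± 0.550 in siHAND2 (-0.47, adjusted p = 1.11e-06). GABPB1, a subunit of the GA-binding protein, rose in siHAND2 from 64.0 ± 1.14 to 96.6 ± 4.26 CPM (0.59, adjusted p = 6.74e-08). GABPB1 was also called higher in siMYCN (0.12, adjusted p = 0.0445). The 1 rise in siMYCN under either rescaling was that of ETS1.

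Of 16 proliferation genes, 1 rose and 2 fell in siMYCN and 3 rose and 0 fell in siHAND2, with medians of -0.01 and 0.02. Their sum was 4772 to 4879 CPM in siCTR, 4789 to 4826 in siMYCN and 4859 to 4985 in siHAND2. Rescaled, 0 rose and 6 fell with the median ratio and 1 rose and 5 fell with quantiles in siMYCN, and 2 rose and 1 fell with the median ratio and 2 rose and 0 fell with quantiles in siHAND2. MCM7, a helicase subunit of DNA replication, fell by 0.17 in siMYCN (adjusted p = 0.0117), lost without siCTR replicate 3 (-0.15) and with quantile normalization (-0.11). RRM2, a ribonucleotide reductase subunit, rose by 0.12 in siMYCN (adjusted p = 0.0249) and by 0.26 in siHAND2 (adjusted p = 8.60e-05). The siMYCN call was lost without siCTR replicate 2 (0.10) or 3 (0.12), siMYCN replicate 1 (0.11) or 3 (0.12), with no intensity trend and under both other scalings (0.06 in each). MCM6 rose by 0.16 in siHAND2 (adjusted p = 0.00969).

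**Figure D5:**
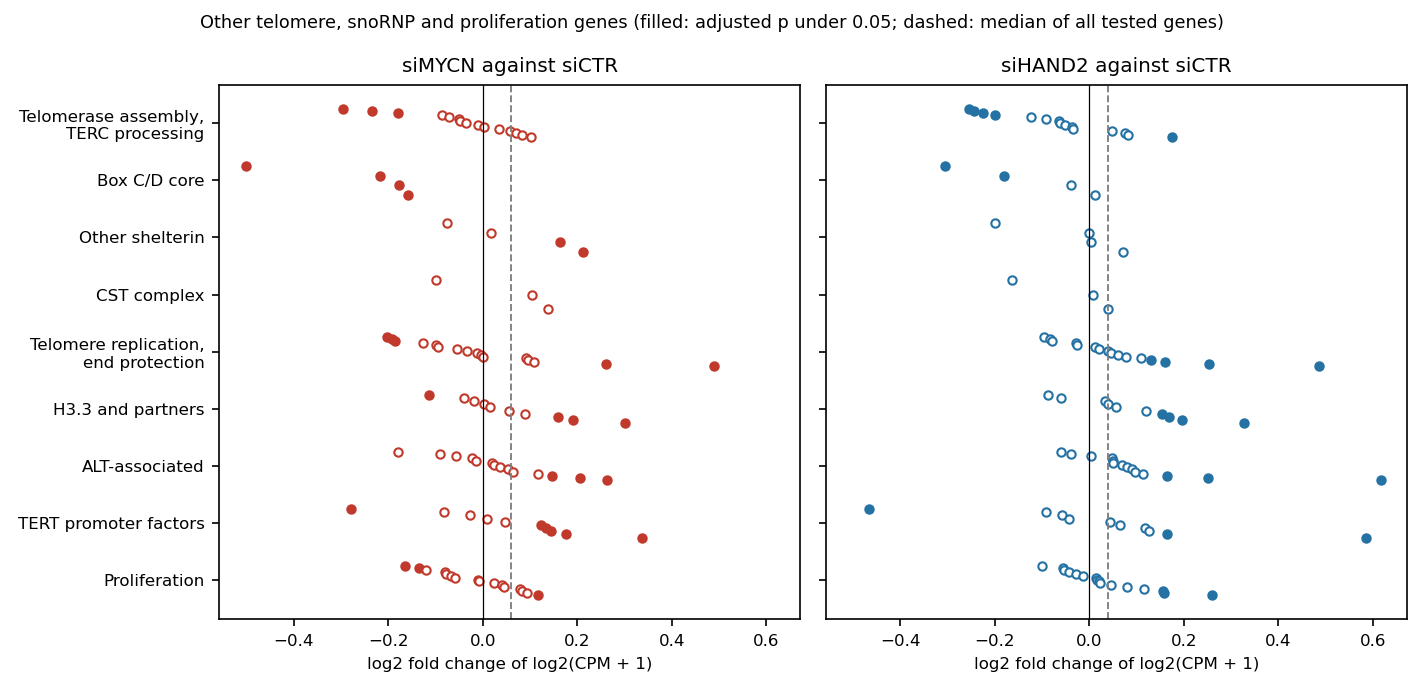
Log2 fold change on the log2(CPM + 1) scale (horizontal axes) of each tested gene of the lists, in siMYCN and in siHAND2 against siCTR, 1 point per gene and 1 row per list. Filled points have an adjusted p under 0.05. All 4 box C/D core genes are filled and below 0 in siMYCN.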

How the data were processed

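The authors deposited 1 table of CPM values with a column per library, and every value includes a constant of 0.0001. STAR 2.5.1 and Partek were used and hg19 is named, per the submitters' processing notes, but 91.4% of 18215 gene starts lay within 5000 bp of their GRCh38 position and 5.65% of 18473 of their GRCh37 position, so coordinates are given as GRCh38. The counting rule, its use of strand and the annotation are not given in the sources used here.

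The deposited values are CPM and not counts, so no count model was fitted. Low values were whole multiples of a smallest step (within 0.02 of it, up to 20 steps) in only 79.9% to 81.3% of cases. Genes reaching 1 CPM in 3 libraries (14495; 10589 left out; all 10 genes kept) were tested on log2(CPM + 1) with limma 3.58.1 in R 4.3.3: 1 mean per group, 9 libraries in 1 fit, eBayes with an intensity trend, two-sided, Benjamini-Hochberg over all genes, threshold 0.05. The model was tested on simulated data. The 10 genes and the lists were chosen with earlier results of these data known. Named from each list are the 2 genes with the smallest p in each comparison with siCTR.

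The alternatives changed the pseudocount (0.1 or 5), the filter (none or 5 CPM), the scaling (median ratio or quantiles), the samples (2 groups alone, or each library left out), the trend (none) and the design (replicate number as a block). Summing TERC with AC078802.2 was chosen after seeing the data. Promoter sequences are from RefSeq (GRCh38.p14), and transcript lengths from GENCODE.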

Additional observations from a re-analysis of the deposited data

How the results depend on the processing

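Of 540 recomputed values of the 10 genes, 496 kept their direction and side of the threshold, 29 lost a call, 7 gained one and 8 changed sign. The falls of TERT, DKC1 and NHP2 and the rise of ATRX in siMYCN, and the falls of TERC, DKC1 and NHP2 in siHAND2, were called in every alternative in which the gene was tested; TERT did not pass the filter of 5 CPM. The number of the 10 genes called higher in siMYCN was 1 with no filter, with median-ratio rescaling, with quantile normalization and with no intensity trend, and 1 to 2 with a library left out. In siHAND2 it was 1 with median-ratio rescaling and 0 to 2 with a library left out. Between the knockdowns, the number higher was 1 with the filter of 5 CPM, 1 with the 2 groups alone, 3 with quantile normalization and 1 to 2 with a library left out, and the number lower was 1 with the replicate block, 1 with TERC summed with AC078802.2 and 0 to 1 with a library left out. DAXX in siMYCN was -0.01669 with the median ratio and -0.01854 with quantiles. With a library left out, the difference of siHAND2 from siMYCN ran over -0.005403 to 0.03967 for NOP10, -0.01594 to 0.1185 for GAR1, -0.03080 to 0.02866 for DAXX and -0.007990 to 0.05773 for TERF1, and CTC1 in siHAND2 over -0.01048 to 0.08092. The cause of these shifts was not tested.

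Replicate numbers were to be taken as pairs only if all same-numbered libraries correlated by over 0.1 in their deviations from the group means. They did for numbers 1 and 3, in 6 of 9 pairs, and not for number 2 (range over all pairs -0.040 to 0.305), so the reported model has no block; 7 of 9 libraries correlated best with their own number, a hint of a shared effect that comes from the data and not from the labels. The replicate block gave 5895, 5089 and 4689 calls over all genes in place of 5209, 4339 and 3892, and called ATRX lower in siHAND2 than in siMYCN (adjusted p = 0.0237) and ACD lower in siHAND2 than in siCTR (0.0297). Depth limits TERT most, at 41 to 120 reads per library.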
